A study of Homo sapiens with 12 samples.

Results

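The forkhead box (FOX) genes encode transcription factors that share the forkhead DNA-binding domain, and they were described here by where histone H3 variants were enriched along them. Members were the protein-coding genes of the RefSeq gene table (hg38, assembly GRCh38.p14) whose symbol is FOX followed by one letter from A to S and a number. This gave 45 genes, of 19974 that code for protein on chromosomes 1 to 22 and X. A member was counted in a list when a region called by the authors overlapped the gene body or 2 kb beyond either end by at least 1 bp.

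The regions came from chromatin immunoprecipitation followed by sequencing (ChIP-seq) of H3.3 and of H3.1/H3.2 (written H3.1 below) in MCF10AER/vSrc, a cell line. Its parent MCF10A grows from non-tumorigenic human breast epithelium, and ER/vSrc stands for a v-Src oncoprotein that can be switched on. No RNA was measured here, so marker genes of that epithelium could not be checked. All groups were wild type per the labels and shared a medium with epidermal growth factor, insulin, hydrocortisone and cholera toxin. For each histone there was a control library, a library 4 h after D-alanine and a library 24 h after D-alanine, and each had its own input. D-alanine was given so that reactive oxygen species formed in the nucleus, per the series design. The labels give a dose of 10 nM, which is unusually low for D-alanine, so the unit is doubtful. The 12 samples were thus 6 ChIP and 6 input libraries with 1 library per condition, so no difference between conditions has a replicate check and none was tested.

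Histone H3.1 is deposited mainly with DNA replication, whereas H3.3 is deposited throughout the cell cycle and is found at active genes, regulatory elements and some silent repeats. Forkhead factors take their DNA-binding specificity from a winged-helix fold that reads short T-rich core motifs, and the FOXA factors can open compact chromatin. FOXO factors are held in the cytoplasm by AKT phosphorylation and enter the nucleus under oxidative stress, FOXM1 drives the genes of mitosis, and FOXC and FOXQ factors are known from epithelial-mesenchymal transition. Many FOX genes are short, have few or no introns and lie in CpG-rich domains.

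The promoter sequences that carried a region are shown first, since a region at the start of a FOX gene was rare. RefSeq gave 45 promoter entries for 34 members, each 300 bases long, from 250 bases before to 50 bases after a transcription start. Members with no entry included FOXE3, FOXM1, FOXF1, FOXC2, FOXL1, FOXJ1, FOXN2, FOXA2, FOXS1 and FOXH1. A region overlapped the promoter entries of 3 members, each in one list. The sequences below are RefSeq's (GRCh38.p14), written 5′ to 3′ on the strand of the gene, and capitals mark the bases that lie inside the called region. FOXA1 is on the minus strand at chr14:37595200-37595499 and had a region in the H3.3 control list, FOXO6 is on the plus strand at chr1:41361184-41361483 with a region in the H3.1 24 h list, and FOXR1 is on the plus strand at chr11:118971511-118971810 with a region in the H3.1 control list.
FOXA1: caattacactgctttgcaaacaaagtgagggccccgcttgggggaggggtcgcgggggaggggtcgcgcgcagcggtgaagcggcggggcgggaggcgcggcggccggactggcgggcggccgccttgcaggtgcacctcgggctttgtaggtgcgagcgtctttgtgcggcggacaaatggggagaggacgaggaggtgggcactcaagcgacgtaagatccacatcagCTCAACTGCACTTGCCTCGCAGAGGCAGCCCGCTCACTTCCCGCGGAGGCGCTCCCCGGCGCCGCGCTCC
FOXO6: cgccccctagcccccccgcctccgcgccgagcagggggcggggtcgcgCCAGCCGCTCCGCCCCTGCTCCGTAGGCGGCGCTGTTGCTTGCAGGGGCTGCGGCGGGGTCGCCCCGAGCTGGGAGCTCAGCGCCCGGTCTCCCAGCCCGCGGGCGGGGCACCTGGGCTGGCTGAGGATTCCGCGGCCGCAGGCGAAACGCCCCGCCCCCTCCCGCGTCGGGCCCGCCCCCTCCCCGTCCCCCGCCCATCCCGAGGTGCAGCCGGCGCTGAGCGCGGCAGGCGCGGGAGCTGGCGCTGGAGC
FOXR1: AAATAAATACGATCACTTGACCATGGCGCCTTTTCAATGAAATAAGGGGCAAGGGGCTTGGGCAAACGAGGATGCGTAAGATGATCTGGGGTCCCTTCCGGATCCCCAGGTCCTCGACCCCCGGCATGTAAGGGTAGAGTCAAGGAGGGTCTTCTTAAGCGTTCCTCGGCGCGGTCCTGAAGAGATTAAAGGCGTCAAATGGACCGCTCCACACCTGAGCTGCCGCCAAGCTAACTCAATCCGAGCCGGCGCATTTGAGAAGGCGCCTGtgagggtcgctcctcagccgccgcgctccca

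FOXA1, a pioneer factor that works with the estrogen receptor in mammary epithelium, had 70 of its 300 promoter bases in the region, all at the downstream end. Its promoter held 34 CpG dinucleotides, 9 of them in the region. FOXO6, a FOXO factor best known from brain, had 252 bases in the region and 34 of its 42 CpG dinucleotides there. FOXR1, a divergent forkhead gene, had 269 bases and 18 of 22 CpG dinucleotides in the region. The 3 promoters differed in how much of them was covered, and all had at least as many CpG dinucleotides as the median of 21 over 22132 protein-coding promoters. The 45 FOX promoters had a median of 28 CpG dinucleotides (range 1 to 55).

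The forkhead core motifs TGTTTAC and TGTTTGC were searched on both strands, each on its own. TGTTTAC was found in 2 of 45 FOX promoters (4.44%), those of FOXO4 and one of FOXP1, against 2.85% of all promoters. TGTTTGC was also found in 2 FOX promoters (4.44%), those of FOXA1 and FOXD4, against 3.4% of all promoters. The FOXA1 match began at base 16 on the strand opposite to the gene and lay outside the called region. A match is only a run of letters, and the data hold no binding of a forkhead factor.

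A region overlapped 1 of 45 FOX promoters (2.22%) in the H3.1 24 h list, against 2.49% of all promoters, 1 in the H3.3 control list, against 1.47%, and 1 in the H3.1 control list, against 2.59%. It overlapped 0 in the H3.3 24 h list, against 4.53%, and 0 at 4 h, against 0.773% for H3.1 and 0.212% for H3.3. FOX promoters were thus covered about as seldom as promoters at large. The lists differed in which promoters they covered. The median CpG count of promoters in a region was 26 in the H3.1 24 h list and 23 in the H3.3 control list, but 8 in the H3.3 24 h list and 7 in the H3.1 control list. Lists also differed greatly in length, at 44990, 7949 and 13641 regions for H3.1 in control, 4 h and 24 h, and 9867, 3628 and 81405 for H3.3. ChIP depth was similar, between 16837079 and 19576955 tags per library.

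FOX genes were short, with a median body of 4.93 kb (range 1.3 to 629 kb) against 24.2 kb over all protein-coding genes. Since a long gene meets more regions, each count is set against genes of like length, taken as the mean share of genes with a region in the same of 20 gene-length bins. The percentage of all protein-coding genes with a region is the background. Shares carry exact Clopper-Pearson 95% intervals, which cover counting error only.

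In the H3.1 control list 22 of 45 FOX genes held a region, or 48.9% (33.7 to 64.2), against 37.4% of genes of like length and a background of 44.3%. At 4 h it was 11 genes, or 24.4% (12.9 to 39.5), against 13.6% and a background of 17.1%. At 24 h it was 18 genes, or 40% (25.7 to 55.7), against 23.6% and a background of 28.4%. FOX genes thus held H3.1 regions in a share above genes of their length in all 3 lists, by 11.4, 10.9 and 16.4 percentage points, and the like-length share fell below the interval at 24 h only. With the 24 h list held to its 3614 best-scoring regions, the length of the shortest list, its margin was -0.4 points, and the margins in control and at 4 h were 0.4 and 3.8 points. The interval of the 24 h margin also held 0 at a fold of at least 8 (4.1 points), at the gene ends only (9.7 points) and without the members over 100 kb (13.6 points).

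In the H3.3 control list 16 of 45 FOX genes held a region, or 35.6% (21.9 to 51.2), against 18.5% of genes of like length and a background of 21.3%. At 4 h it was 3 genes, or 6.67% (1.4 to 18.3), against 6.69% and a background of 8.97%. At 24 h it was 28 genes, or 62.2% (46.5 to 76.2), against 50.3% and a background of 60.2%. The difference from genes of like length was 17 points in the control list, where the like-length share fell below the interval, 0 at 4 h and 11.9 at 24 h. The control margin was 6.7 points (-2.4 to 20.6) at the length of the shortest list by score, 2.9 points (-1 to 13.6) at a fold of at least 8 and 8.9 points (-1.5 to 23.5) at the gene ends only, and each of these intervals held 0. Between conditions the FOX counts followed the lengths of the lists, so a higher count in one library is not by itself a difference at these genes.

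**Figure D1:**
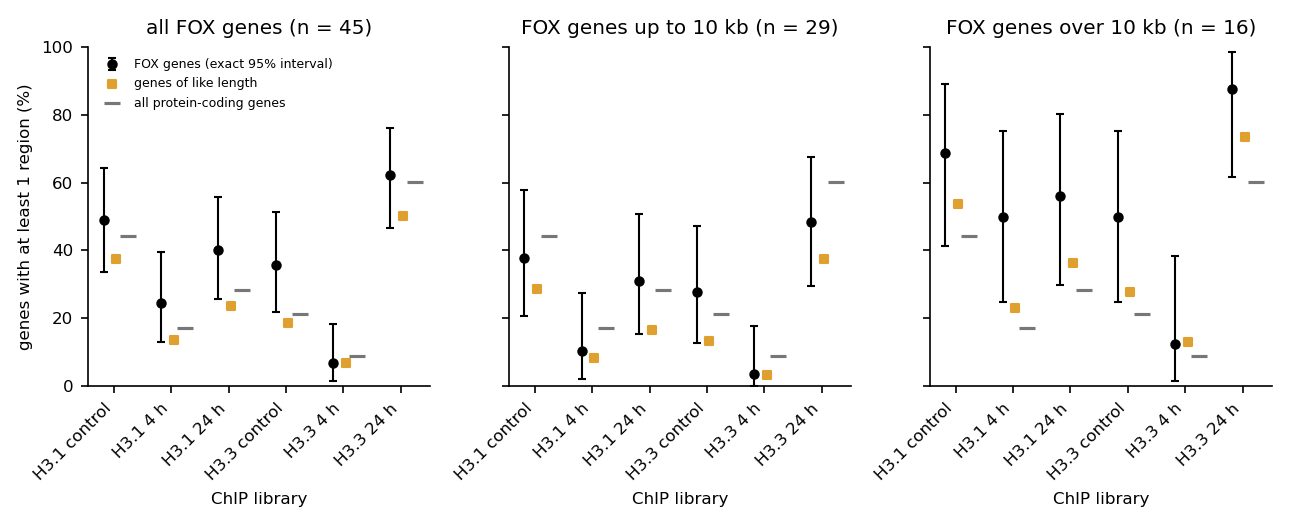
The percentage of genes with at least 1 region (y axis) is plotted for each ChIP library (x axis), for all FOX genes and for those up to or over 10 kb. Black points are FOX genes with exact 95% intervals, orange squares genes of like length and grey bars all protein-coding genes; for all 45 genes the orange square lies below the interval in the H3.1 24 h and H3.3 control libraries.

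The margin was examined by gene length. A limit of 10 kb, chosen after the values were seen, put 29 members below it (median 3.49 kb) and 16 above it (median 75.3 kb). FOXR1 at 9.53 kb and FOXP3 at 14.3 kb lay on either side of it. The 29 short genes held 13 regions in the H3.1 24 h list, which is 2.34 times the 5.6 expected from genes of like length, and 11 regions in the H3.3 control list, which is 2.51 times the 4.4 expected. In the H3.3 24 h list they held 19 regions, 1.23 times the 15.4 expected, and in the H3.1 control list 13, 1.21 times the 10.7 expected. The 16 long genes held 14 regions in the H3.1 24 h list, 1.14 times the 12.3 expected, and 10 in the H3.3 control list, 1.18 times the 8.5 expected. They held 86 regions in the H3.3 24 h list, 1.16 times the 73.9 expected, and 37 in the H3.1 control list, 0.895 times the 41.3 expected. Counted as genes instead of regions, the margin at long genes was 19.9 points in the H3.1 24 h list and 22.2 in the H3.3 control list, against 14.5 and 14.2 at short genes. All of these intervals held the like-length share. At long genes they were 29.9 to 80.2 against 36.3% and 24.7 to 75.3 against 27.8%. At short genes they were 15.3 to 50.8 against 16.6% and 12.7 to 47.2 against 13.4%. The classes thus cannot be ranked by this margin. In these lists the number of regions was furthest above like length at short genes, while the share of genes with any region was above that of like length in both classes. The H3.1 4 h list went the other way, with regions 1.36 times the expected number at long genes and 1.15 times at short genes. Its margins in genes were 27 and 2 points, and the long-gene interval (24.7 to 75.3) lay above the like-length 23%. In the H3.3 4 h list regions were 0.667 and 1.09 times the expected number.

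Promoter CpG count was matched as well as length, in coarser length bins than above and only among genes with a promoter entry. The like-length shares in this paragraph use the same bins and genes, so they differ from those given above. For the 34 members with a promoter entry, 41.2% were in the H3.1 24 h list, against 28.2% of genes of like length and CpG count and 24% of genes of like length alone. For the H3.3 control list it was 38.2% of members, against 22.2% and 18.7%. The matched share was higher than that for length alone in all 6 lists. The margin in the H3.1 24 h list was then 12.9 points (-3.6 to 31.1), so its interval held 0, and that in the H3.3 control list was 16.1 points (0 to 34.3).

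**Figure D2:**
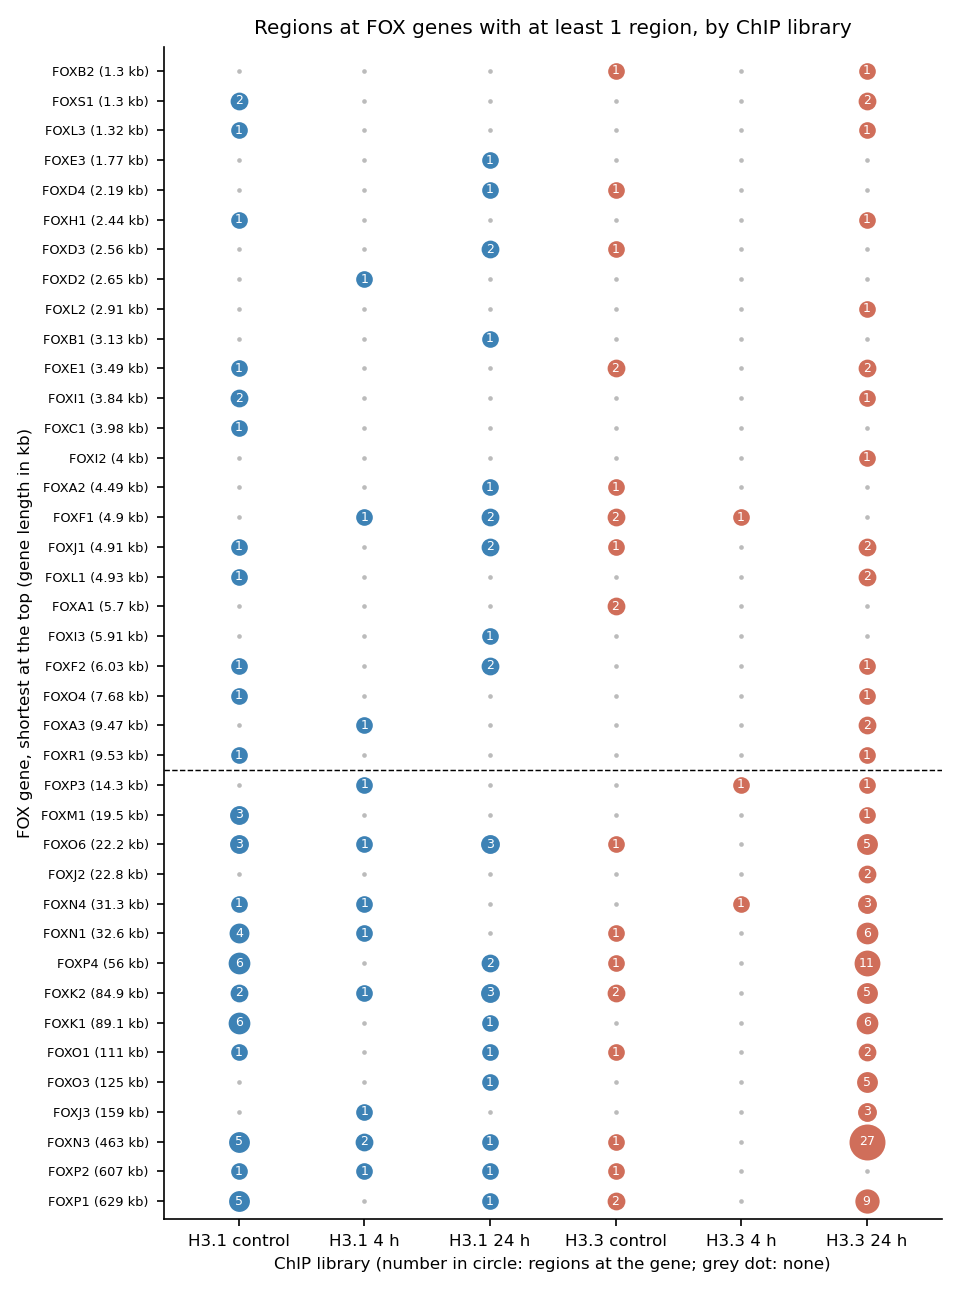
Each FOX gene with a region in at least 1 list (y axis, shortest at the top, length in kb) is shown against the 6 ChIP libraries (x axis), with the number of regions in the circle and a grey dot for none. The dashed line marks 10 kb; the largest circle is the 27 H3.3 regions of FOXN3 at 24 h.

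Of the 45 genes, 6 held no region in any list, 9 held one in a single list, 15 in 2 lists, 4 in 3 lists, 8 in 4 lists and 3 in 5 lists, and none held one in all 6. A region in 3 or more lists was thus seen for 15 of the 45 FOX genes, against 30.1% of all protein-coding genes. No region at all was seen for 6 of the 45, against 26.3% of all genes. Unlike the counts per list, these were not set against genes of like length, and FOX genes were shorter. The FOX genes without a region included FOXC2, FOXN2, FOXD1, FOXQ1 and FOXR2. FOXQ1 and FOXC2 encode factors tied to epithelial-mesenchymal transition, and FOXD1 one of the kidney stroma. The nearest region lay 8.93 kb from FOXQ1 (H3.1 control), 3.73 kb from FOXC2 (H3.3 24 h) and 8.21 kb from FOXD1 (H3.1 24 h). It lay 14.4 kb from FOXN2 (H3.3 control) and 17.2 kb from FOXR2 (H3.3 24 h). FOXN2 stands out among them by length, with a body of 65.6 kb, against 2.9 kb at most for FOXC2, FOXD1, FOXQ1 and FOXR2.

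The FOXO genes were described as a group because of their role under oxidative stress. FOXO1, a main target of insulin signalling with a body of 111 kb, held 1, 0 and 1 H3.1 regions and 1, 0 and 2 H3.3 regions in control, 4 h and 24 h. Its H3.3 region at 24 h at chr13:40597589-40598089 had 12.3 normalised tags, that is tags per 10000000 tags of the library, and its other 24 h region had 8.68. The H3.1 region at 24 h had 11.3 normalised tags, against 8.58 in the control region, and these were at different positions. FOXO1 was thus without a region in either 4 h list. At 4 h, 1172 of 1509 genes of 0.8 to 1.25 times its length held no H3.1 region, and 1307 held no H3.3 region. This absence is thus not particular to FOXO1. The H3.1 and H3.3 control regions of FOXO1 overlapped each other, at chr13:40563119-40563619 and chr13:40562969-40563469.

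FOXO3, the FOXO factor most often tied to antioxidant genes, held 0, 0 and 1 H3.1 regions and 0, 0 and 5 H3.3 regions, so all 6 of its regions were in 24 h libraries. The H3.1 region, at chr6:108559051-108559551, was centred at -524 bp from a transcription start (negative is upstream) and had 9.5 normalised tags and a fold of 8.61 over input (95% interval 2.03 to 77.2, from 16 ChIP and 2 input tags). The leading H3.3 region, at chr6:108685751-108687172, began 977 bp beyond the gene and had 21.5 normalised tags and a fold of 8.89 (3.22 to 34.1). Genes of like length had a median of 2 H3.3 regions at 24 h and 0 H3.1 regions. Of those 1431 genes, 477 had as many H3.3 regions at 24 h as FOXO3 or more. Short reads from FOXO3 and its copy FOXO3B can be hard to tell apart.

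FOXO4, on chromosome X, held one H3.1 region, in control (9.65 normalised tags), and one H3.3 region, at 24 h (7.66), both shared with the neighbouring gene CXorf65. FOXO6 held 3, 1 and 3 H3.1 regions and 1, 0 and 5 H3.3 regions. The region at its start in the H3.1 24 h list, at chr1:41361232-41361732, had 16.6 normalised tags and a fold of 4.3 (1.84 to 11.7), and a second one centred at -2006 bp had 17.2. In the H3.3 control list a region centred 660 bp after the start, at chr1:41361844-41362344, had 12.3 normalised tags and a fold of 4.07 (1.5 to 13.8). FOXO6 was the FOXO gene with regions in most lists, 5 of 6, and its H3.3 regions at 24 h were centred 2618 to 15783 bp after the start.

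FOXM1, the factor of the G2 and M phase genes, held 3 H3.1 regions in control and 1 H3.3 region at 24 h. The strongest, at chr12:2864290-2865007, had 15 normalised tags and a fold of 7.91 (2.44 to 40.7). The other control regions were shared with ITFG2 and TEX52, and the 24 h one, with 8.68 normalised tags, with RHNO1. The other 4 lists had no region at FOXM1.

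Among the FOXA pioneer factors, FOXA1 held regions in the H3.3 control list only. The region at chr14:37592376-37592876 had 19.5 normalised tags and a fold of 4.05 (1.85 to 10.1), and the one at its start had 17.9 and a fold of 4.94 (2.04 to 14.4). The start region also lies in the window of TTC6. FOXA2, an endoderm factor, held 1 H3.1 region at 24 h with 11.9 normalised tags and 1 H3.3 region in control with 12.3, which did not overlap. FOXA3, a liver factor, held 1 H3.1 region at 4 h with 11.4 normalised tags and 2 H3.3 regions at 24 h with 8.17 and 9.71. None of the FOXA genes had an H3.1 control region, where 34.6%, 32% and 39.2% of genes as long as FOXA1, FOXA2 and FOXA3 had one. The H3.3 control regions of FOXA1 and FOXA2 had no counterpart in the H3.3 24 h list. Over the whole H3.3 control list only 4.03% of regions had one, so neither absence is particular to these genes.

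FOXC1, a mesenchymal factor high in basal-like breast tumours, held only an H3.1 control region, centred at -744 bp from its start, with 8.04 normalised tags and a fold of 4.24 (1.2 to 22.8). FOXF2, a mesenchymal factor, lies with FOXQ1 and FOXC1 in 306 kb of chromosome 6, which held 11, 0 and 5 H3.1 regions and 1, 1 and 21 H3.3 regions. The FOXF2 region at chr6:1390752-1391252 in the H3.1 24 h list had the highest score of all FOX regions there, with 20.2 normalised tags and a fold of 4.07 (1.91 to 9.65), centred 1426 bp after the start. FOXF1, its relative on chromosome 16, held 0, 1 and 2 H3.1 regions and 2, 1 and 0 H3.3 regions. Its downstream flank carried overlapping regions in the H3.1 4 h, H3.1 24 h and H3.3 control lists. They had 17.6, 10.1 and 19 normalised tags over 751, 500 and 810 bp. That was the only site in the family called in 3 lists.

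In the remaining short genes the best-scoring regions were near the start in some lists and beyond the gene in others. FOXD3, a neural crest factor, had H3.1 regions at 24 h on both flanks with 10.1 and 12.5 normalised tags, and an H3.3 control region in the body with 10.1. FOXE1, a thyroid factor, held 1 H3.1 control region, 2 H3.3 control regions and 2 H3.3 regions at 24 h, and one of its H3.3 control regions was centred 407 bp after the start with 10.1 normalised tags. FOXJ1, which drives motile cilia genes, held 1, 0 and 2 H3.1 regions and 1, 0 and 2 H3.3 regions. Its flank region was called both in the H3.1 24 h list with 13.7 normalised tags over 500 bp and in the H3.3 control list with 15.1 over 652 bp. It is shared with RNF157. FOXI1, known from ionocytes, had its strongest region in the H3.3 24 h list, 1491 bp beyond the gene, with 21.5 normalised tags and a fold of 5.93 (2.51 to 17.1). FOXH1, a partner of SMAD proteins, had 12.8 normalised tags in the H3.3 24 h list against 8.04 in the H3.1 control list at overlapping positions. The folds ran the other way, at 7.05 (2.15 to 36.5) and 12.7 (1.96 to 535). Both positions also lie in the windows of KIFC2 and PPP1R16A. FOXD4, with 1 H3.1 region at 24 h and 1 H3.3 control region, has near-identical FOXD4-like copies, so reads there are uncertain.

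The other members with a region were FOXB1, FOXB2, FOXD2, FOXE3, FOXI2, FOXI3, FOXJ2, FOXJ3, FOXL1, FOXL2, FOXL3 and FOXS1, which held 1 to 4 regions each over the 6 lists. FOXB2, a short gene known from the nervous system, had a region beyond its end in the H3.3 24 h list with 16.9 normalised tags and a fold of 14 (3.57 to 120), and a region in the body in the H3.3 control list with 19.5 normalised tags and a fold of 4.63 (2.03 to 12.3). FOXJ3, of 159 kb, held an H3.3 region at 24 h of 1286 bp with 17.9 normalised tags and a fold of 14.8 (3.81 to 127). At FOXL1, a gut mesenchyme factor, an H3.3 24 h region had 15.8 normalised tags over 842 bp and a fold of 6.56 (2.32 to 25.6). The overlapping H3.1 control region had 10.7 over 500 bp and a fold of 16.9 (2.71 to 703), so tags and fold ran opposite ways. FOXL3 and FOXS1 also had H3.3 regions at 24 h that overlapped H3.1 control regions, one of those at FOXS1 shared with DUSP15.

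**Figure D3:**
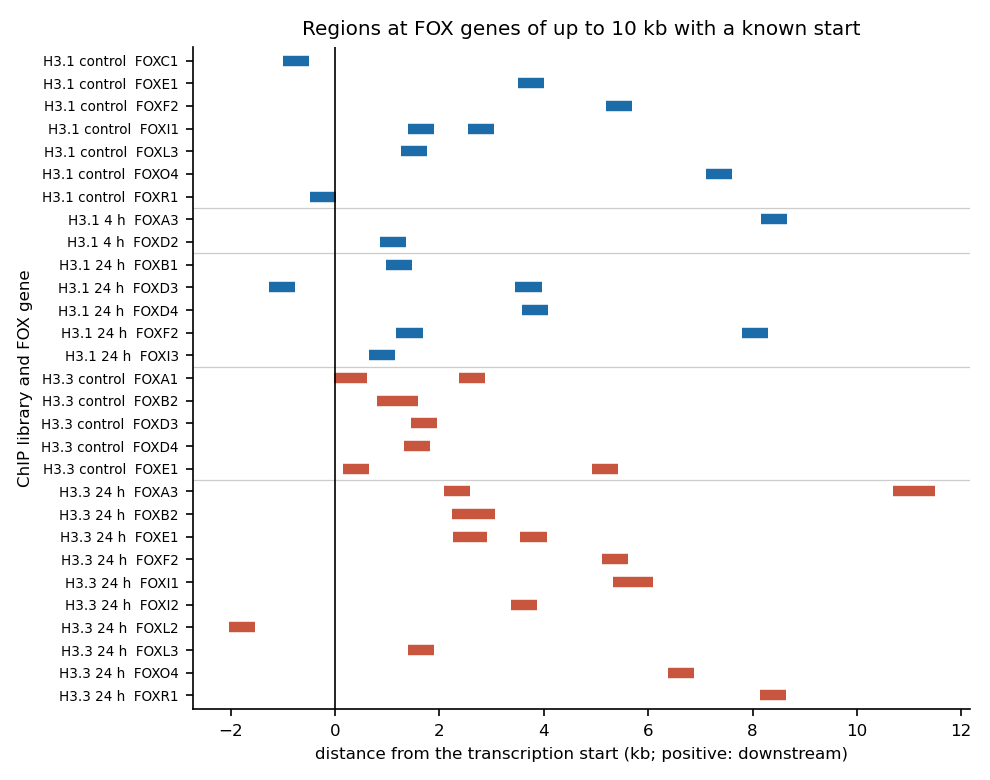
Each bar is a called region of a FOX gene of up to 10 kb with a RefSeq promoter entry, placed by distance from the nearest transcription start (x axis, kb, positive downstream), with 1 line per library and gene (y axis). One H3.3 control region of FOXA1 lies at the start, while most regions of the H3.3 24 h library lie more than 2 kb away.

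Distance from the start was compared over all members with a promoter entry, without matching for gene length. The share near a start depends on length, and FOX genes had a median of 4.93 kb against 24.2 kb over all genes. The shares below thus do not show a preference of FOX genes for the start. In the H3.1 24 h list 6 of 21 FOX regions were centred within 2 kb of a start (28.6%), against 19.9% of the 7055 regions at all such genes. In the H3.3 control list it was 6 of 17 (35.3%), against 17.7% of 5023. In the H3.3 24 h list it was 5 of 97 (5.15%), against 9.81% of 37269, and 27 of the 97 were at FOXN3, of 463 kb. In the H3.1 control list it was 5 of 42 (11.9%), against 10.4% of 21292. At 4 h the counts were 2 of 11 for H3.1 (18.2%), against 14.7% of all, and 0 of 2 for H3.3, against 12.1%. The same lists, H3.1 at 24 h and H3.3 in control, had the highest shares for FOX genes and for all genes.

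The forkhead-associated domain genes FOXK1 and FOXK2, whose proteins bind many promoters with the deubiquitinase BAP1, held high-scoring regions. FOXK1 held 6, 0 and 1 H3.1 regions and 0, 0 and 6 H3.3 regions. Its H3.3 region at 24 h at chr7:4735346-4737117 was 1771 bp wide with 40.4 normalised tags and a fold of 5.14 (2.84 to 10.1, from 79 ChIP and 13 input tags), the highest tag count of any FOX region. It overlapped the H3.1 control region at chr7:4735053-4735842, which had 20.9 normalised tags over 789 bp and a fold of 5.51 (2.32 to 15.9). The tags of these regions are not scaled to width. Input averaged 4.67 tags per FOXK1 region in the H3.3 24 h list, against 3.06 over chromosome 7 and 2.38 over the whole list. These means are not scaled to width. The 13 input tags lay in 1771 bp, against a median width of 500 bp over the list. The part of input in the result was not tested. FOXK2 held 2, 1 and 3 H3.1 regions and 2, 0 and 5 H3.3 regions. The H3.3 control region at chr17:82587450-82587950 had 18.4 normalised tags and a fold of 6.11 (2.37 to 20), the highest score of the FOX regions in that list.

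The FOXN genes ranged from no region at FOXN2 to the most regions of the family at FOXN3, a checkpoint repressor gene of 463 kb. FOXN3 held 5, 2 and 1 H3.1 regions and 1, 0 and 27 H3.3 regions. The 27 regions had 6.13 to 18.9 normalised tags and a median fold of 8.46, summed to 16.1 kb, and 2 of them overlapped H3.1 control regions. Mean input at them was 1.89 tags, against 2.05 over chromosome 14. Among 323 genes of 0.8 to 1.25 times its length the median was 5 H3.3 regions at 24 h, and 48 had 27 or more. FOXN4, a retinal factor, held 1, 1 and 0 H3.1 regions and 0, 1 and 3 H3.3 regions. Its H3.1 control region at chr12:109292900-109294481 had 28.9 normalised tags over 1581 bp and a fold of 5.08 (2.49 to 11.7), the top score of the family in that list. It held 9 input tags, against a mean of 2.29 per region over chromosome 12, but the median width in that list was 500 bp. The counts are thus not scaled to width, and the part of input in the result was not tested. FOXN1, the thymic epithelial factor, held 4, 1 and 0 H3.1 regions and 1, 0 and 6 H3.3 regions, and its region of 4 h H3.1 lay 323 bp after the start with 11.4 normalised tags.

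The FOXP genes, which encode dimerising repressors, included the longest members. FOXP1, of 629 kb, held 5, 0 and 1 H3.1 regions and 2, 0 and 9 H3.3 regions, where 180 genes of like length had a median of 6 H3.3 regions at 24 h. FOXP2, of 607 kb and known from speech circuits, held 1, 1 and 1 H3.1 regions and 1, 0 and 0 H3.3 regions. Of 193 genes of like length, 12 had no H3.3 region at 24 h, and the median was 5. FOXP2 was thus below and FOXN3 above the median for its length in the same library. FOXP4, of 56 kb, held 6, 0 and 2 H3.1 regions and 1, 0 and 11 H3.3 regions, and its widest H3.3 region at 24 h, at chr6:41581618-41583681, had 26.6 normalised tags and a fold of 11 (4.05 to 41.9). FOXP3, the regulatory T cell factor, held 1 H3.1 region at 4 h, 1 H3.3 region at 4 h and 1 H3.3 region at 24 h. The H3.1 region at chrX:49250745-49251536 had 27.3 normalised tags and a fold of 4.13 (2.11 to 8.81), the top score of the family at 4 h, and it is shared with CCDC22. It held 11 input tags in 791 bp, against a mean of 3.58 per region over chromosome X, where the median width of the whole list was 500 bp.

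**Figure D4:**
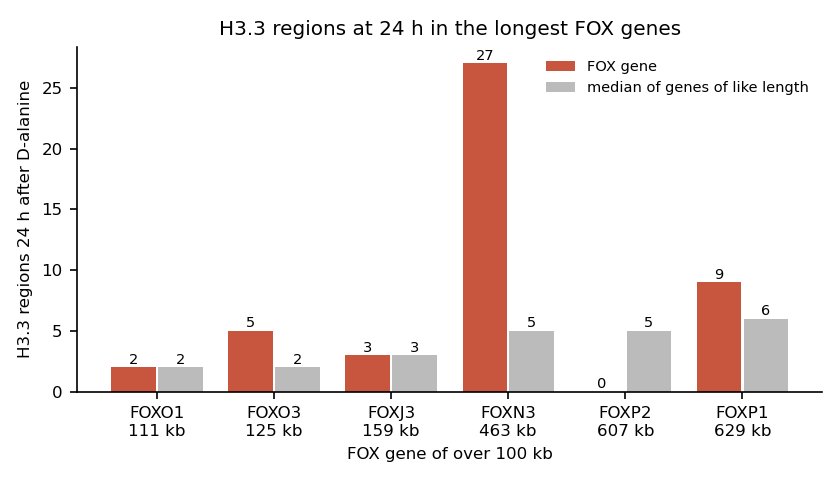
The number of H3.3 regions 24 h after D-alanine (y axis) is shown for the 6 FOX genes of over 100 kb (x axis, with gene length), beside the median of genes of 0.8 to 1.25 times that length in grey. FOXN3 had 27 regions against a median of 5, and FOXP2 had 0 against 5.

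The number of FOX genes in both lists was above that expected from genes of like length in 11 of the 15 pairs of lists, and the other 4 pairs all had the H3.3 4 h list. The pairs reuse the same 6 lists. Each list but H3.3 at 4 h already had a FOX share above like length on its own. These joint counts are thus not independent of the single-list margins. The H3.3 24 h and H3.1 control lists shared 20 FOX genes, against 13.3 expected from genes of like length, and 15 of 105 H3.3 regions (14.3%) and 16 of 50 H3.1 regions (32%) overlapped, against 18.6% and 33.8% over the whole lists. The H3.1 24 h and H3.3 control lists shared 12 FOX genes, against 4.17 expected, but only the regions at FOXJ1 and FOXF1 overlapped, 2 of 27 (7.41%) and 2 of 21 (9.52%), against 6.03% and 8.34% over the whole lists. In both of these pairs the overlap of regions was close to that of the whole lists.

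At 24 h against control, H3.3 regions were in both lists at 10 FOX genes, at 24 h alone at 18 and in control alone at 6, against 5.55, 17.1 and 2.78 expected from genes of like length. The 18 was thus about the expected number. The 6 were FOXD3, FOXA1, FOXF1, FOXA2, FOXP2 and FOXD4. None of the 105 H3.3 regions at 24 h overlapped any of the 21 control regions, against 0.488% and 4.03% over the whole lists. For H3.1, 10 genes were in both lists, 8 at 24 h alone and 12 in control alone, against 6.36, 4.25 and 10.5 expected. The 8 were FOXE3, FOXD3, FOXB1, FOXF1, FOXI3, FOXA2, FOXO3 and FOXD4. FOXD3, FOXF1, FOXA2 and FOXD4 were thus called for H3.1 at 24 h and not in control, and for H3.3 in control and not at 24 h. The share of all genes with this combination was not counted, so it is not shown to be particular to these genes. Few H3.1 regions recurred at large, with 2.05% of all H3.1 control regions overlapping the H3.1 24 h list. The combination also depends on the 2 kb window. H3.1 control regions lay 2.79 kb from FOXF1 and 3.44 kb from FOXD3, and an H3.3 24 h region 4.23 kb from FOXA2. At FOXD4 the nearest such regions lay 236 kb (H3.1 control) and 120 kb (H3.3 24 h) away, but reads at FOXD4 are uncertain because of its near-identical copies. All 3 genes of the H3.3 4 h list, FOXN4, FOXF1 and FOXP3, were also in the H3.1 4 h list, against 1.28 expected in both. Their positions did not overlap, and over the whole lists 4.15% of H3.3 and 1.89% of H3.1 regions at 4 h overlapped.

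**Figure D5:**
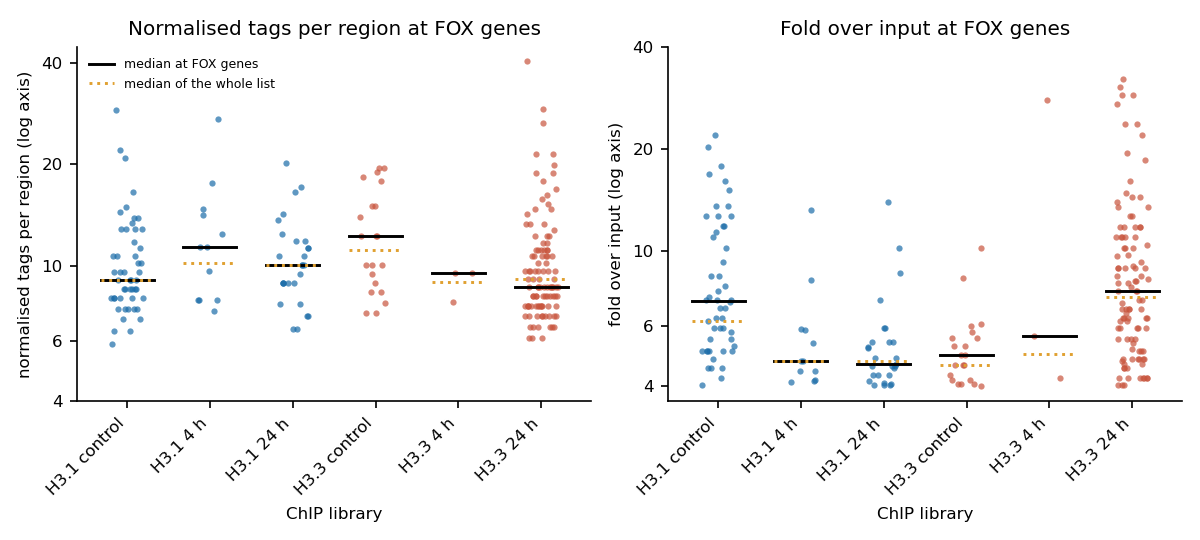
Normalised tags per region (left, per 10000000 tags) and fold over input (right), both on log axes, are plotted for every region at a FOX gene in each ChIP library (x axis). Solid lines are the medians at FOX genes and dotted lines those of the whole list; folds of regions without an input tag use the value of 0.5 that the authors' files write.

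Once called, regions at FOX genes had medians near those of their lists. There were 50, 12 and 27 such regions for H3.1 in control, 4 h and 24 h, and 21, 3 and 105 for H3.3. All regions had passed the same fold of 4, which by itself draws the medians together. Their median fold over input was 7.13, 4.73 and 4.66 for H3.1 in control, 4 h and 24 h, against 6.21, 4.73 and 4.74 over the whole lists. For H3.3 it was 4.94, 5.64 and 7.62, against 4.63, 4.98 and 7.34. Median normalised tags were 9.11, 11.4 and 10.1 at FOX genes for H3.1, against 9.11, 10.2 and 10.1, and 12.3, 9.55 and 8.68 for H3.3, against 11.2, 8.99 and 9.19. The share with a fold of at least 8 was 38%, 16.7% and 11.1% at FOX genes for H3.1, against 34.5%, 6.93% and 8.04%. For H3.3 it was 9.52%, 33.3% and 46.7%, against 6.91%, 7.72% and 46.5%, and the 33.3% is 1 of 3 regions. Every deposited fold rests on few input tags, between 2.33 and 4.19 per FOX region on average.

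The genes around the FOXO and FOXM1 factors were examined as 3 lists. Of 24 FOXO regulators and partners (AKT kinase, SMAD and coactivator genes among them), 10, 6 and 8 had regions of H3.1 in control, 4 h and 24 h, where 12.4, 5.4 and 8.5 were expected from gene length. For H3.3 it was 10, 4 and 13, where 6.4, 3.1 and 17.6 were expected. AKT2, a kinase that keeps FOXO factors in the cytoplasm, was the one gene of this list with a region in all 6 libraries. At 24 h its H3.1 region at chr19:40235689-40236558 had 20.2 normalised tags, and the overlapping H3.3 control region at chr19:40235600-40236100 had 21.2. These tags are not scaled to width, and the H3.1 region was the wider. In shares, the H3.3 control list held 41.7% of the FOXO regulators (22.1 to 63.4) against 26.5% at like length, and the H3.3 24 h list 54.2% (32.8 to 74.4) against 73.4%. Both intervals held the like-length share.

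Of 24 FOXO target genes, 12, 3 and 5 held an H3.1 region, where 10.3, 3.6 and 6.3 were expected, and 2, 1 and 12 an H3.3 region, where 4.7, 1.8 and 13.9 were expected. SOD2, the mitochondrial superoxide dismutase, was in both 24 h lists and in the control list of H3.1. GADD45A, a growth arrest gene, held only an H3.1 region at 24 h, with 13.7 normalised tags. CDKN1A, which encodes the cell cycle inhibitor p21, had one H3.1 region with 13.1 normalised tags and an H3.3 region with 8.17, both at 24 h alone. CCND1, G6PC1, INSR, BBC3, BCL2L11, PCK1, BCL6, IGFBP1 and FBXO32 held an H3.1 region in control and none at 24 h. SOD2, GADD45A and CDKN1A thus do not stand for the list.

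Of 20 FOXM1 target genes, 3, 0 and 3 held an H3.1 region, where 8.8, 3.2 and 5.3 were expected, and 1, 0 and 14 an H3.3 region, where 3.9, 1.6 and 11.9 were expected. The count of these mitotic genes was below the expected one in 5 of the 6 lists. The like-length share lay outside the interval in the H3.1 control list, where 15% of the mitotic genes (3.21 to 37.9) stood against 43.9%, and inside it in the other lists. PLK1, a mitotic kinase, had 14.3 normalised tags in its 24 h region of H3.1, against 11.8 in the control region, at a different position. CENPF, a kinetochore protein gene, held 4 H3.3 regions at 24 h with 7.66 to 11.2 normalised tags, against 1 in control with 14.5.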

How the data were processed

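ChIP-seq of H3.1/H3.2 and of H3.3 was deposited as 1 region list per ChIP library. The submitters' processing notes name the build hg38 and the programs HOMER 4.11.1, Bowtie2 2.4.1 and cutadapt 3.7. HOMER, per the file headers, called regions in each library against its own input with a peak size of 500 bp, at least a fold of 4 over input and a Poisson p-value of 1e-04. The normalised tag count deposited by the authors is the signal per 10000000 tags. The fold ratio, score and p-value per region are the authors' own values, and an input count of 0 is written as 0.5 in the deposited files. ChIP tag counts were recovered from the deposited values, within 0.1 of whole numbers. Input tag counts were taken from the deposited values, and rounded after rescaling where those were scaled to the ChIP library. How far the input counts lay from whole numbers was not recorded. ChIP depth was 16837079 to 19576955 tags per library.

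Gene coordinates, names and promoters came from RefSeq tables (GRCh38.p14). Shares carry exact Clopper-Pearson 95% intervals and folds exact conditional binomial 95% intervals, for counting error only. Genes of like length came from 20 length bins, and from coarser ones where CpG count was also matched. With 1 library per condition no test between conditions was made. The overlap counting was checked on simulated data. Members, the 3 gene lists and the comparisons were chosen with earlier results of these data known. Named genes were the 5 members with the best-scoring region and the 3 with the most regions per list, those in 3 or more lists, those with a region at the promoter, the FOXA, FOXC, FOXQ, FOXM and FOXO members, and further members chosen after their values were seen. Input libraries were used only through the lists. Python 3.11.15, pandas 2.3.3 and scipy 1.17.1 were used. Alternatives were another window, overlap, minimum fold, list length, length matching and membership. Some genes are counted in totals but not reported by name here.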

Additional observations from a re-analysis of the deposited data

Results flagged for a closer look

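The number of FOX genes with a region moved in opposite directions for the histones between 24 h and control. It differed by -4 genes for H3.1, with 18 at 24 h and 22 in control, and by 12 genes for H3.3, with 28 at 24 h and 16 in control. Each number is 1 library against 1 library and follows the length of the lists, which went the same way, at 13641 regions at 24 h and 44990 in control for H3.1 and 81405 and 9867 for H3.3. The difference between the histones was not tested.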

How the results depend on the processing

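With each list held to the 3614 regions of the shortest by score, the counts of FOX genes for H3.1 in control, 4 h and 24 h were 3, 5 and 4, and for H3.3 in control and 24 h 7 and 5. Held to that length by normalised tags they were 3, 6 and 4, and 7 and 3. The H3.1 24 h margin over genes of like length then turned to -0.4 points by score and -0.6 by tags, once its lower-ranked regions were left out. At a fold of at least 8 the counts were 14, 2 and 3 for H3.1 and 2 and 1 for H3.3 in control and 4 h, and the H3.3 control margin was 2.9 points. With only the 2 kb either side of the gene ends, they were 7 and 11 for H3.1 at 4 h and 24 h, and 9, 1 and 18 for H3.3 in control, 4 h and 24 h. At equal list length by score the margins for H3.1 in control and 4 h were 0.4 and 3.8 points and those for H3.3 in control and 24 h 6.7 and 5.7; by tags they were 0.8, 5.8, 6.6 and 1.3. No margin had an interval above 0 at equal list length, a fold of at least 8 or the gene ends only. Of all alternatives, 34 counts stayed within a factor of 1.5 and 75 margins changed by less than their binomial interval, which is wide with 45 genes and does not show that they held. Counts stayed within that factor in every list with a 5 kb flank, no flank, overlap by the larger share of the region, FOX paralogs added and genes over 100 kb left out. Other ways to match length or CpG count were compared by margin only. A 5 kb flank raised the margins to 17.4 points (1.7 to 31.4) for H3.1 control, 22.9 (7.6 to 38.1) for H3.1 24 h and 16.8 (1.7 to 28.4) for H3.3 24 h. For H3.3 control it was 17.6 (3.3 to 33.3). For H3.1 and H3.3 at 4 h it was 10 (-2 to 25.3) and -1.6 (-6.8 to 10).

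Limits are 1 library per condition, region calls that rest on few input tags, lists of very unequal length, gene windows shared with neighbours and short reads at copied genes. No genome, exon table or protein table was used here. No paired analysis was possible because each histone and time has 1 ChIP library and no test was made.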
